A study of Mus musculus with 6 samples.

Results

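Translation factors of the cytosol were examined in mouse brown fat (brown adipose tissue), a heat-producing organ. The set comprised 47 genes: initiation factors (eIF), the kinases that act on eIF2, the 4E-binding proteins, elongation factors (eEF) and the kinase of eEF2. Members were taken by gene symbol from the count table, and all 47 were found among its 24062 symbols. All 47 also passed the filter on low counts, as did 13300 genes in all, and their lowest read count in any library was 255, for Eif2ak4. The libraries came from the brown adipose tissue of male C57BL/6 mice aged 12 weeks, 3 labelled heterozygous for FAM195A and 3 labelled FAM195A knockout, with 1 library per mouse. According to the series, FAM195A binds RNA, belongs to stress granules and is needed by mice for heat production in the cold. By the labels both groups carry at least 1 disrupted copy, no wild-type mice were among these samples, and the labels give neither the allele nor the housing temperature.

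Translation begins when eIF2, loaded with initiator transfer RNA, joins the small ribosomal subunit together with eIF1, eIF3 and eIF5, and the eIF4 proteins bring the messenger RNA by its cap. Kinases that sense stress phosphorylate eIF2, which blocks its reloading by eIF2B and lowers initiation, a step closely tied to stress granules. Elongation then runs on eEF1A, which delivers aminoacyl-tRNA, its exchange factor eEF1B, and eEF2, which moves the ribosome and is held back by eEF2 kinase. In skeletal muscle and neurons, eEF1A1 is largely replaced by its close relative eEF1A2.

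Reads counted in genes ran from 18781401 to 25084627 per library, 3 libraries per group. Levels are given as CPM, a gene's read count relative to the TMM-scaled size of its library. Fam195a itself stood at 68.9, 70.5 and 103 CPM over heterozygous 1 to 3 against 50.5, 82.0 and 81.3 CPM over knockout 1 to 3, with groups that overlapped (log2 fold change -0.18, SE 0.241, edgeR adjusted p = 0.896). The transcript level therefore did not separate the labels. Without a description of the allele, it cannot show whether the labels hold or not. Directions are given throughout for knockout-labelled libraries relative to heterozygous-labelled ones. All 12 brown adipocyte markers were detected, at levels that differed widely: Ucp1, the uncoupling protein, stood at 4381 ± 1245 and 3908 ± 2064 CPM, and the transcription factor gene Zic1 at 8.83 ± 4.22 and 6.04 ± 2.66 CPM (SD, n = 3 each). Of these 12, 4 were above 0 and 8 below. Elovl3, a fatty acid elongase, passed the test, rising from 91.0 ± 6.84 to 186 ± 28.0 CPM (log2 1.03, edgeR adjusted p = 0.0418). Cidea, a lipid droplet protein, was at 0.42 without overlap (edgeR adjusted p = 0.421). The lowest values were those of Ppargc1a and Dio2, at -0.79 and -0.70 with overlap (edgeR adjusted p = 0.805 and 0.835). All 26 skeletal muscle markers were present too, with a summed level of 11811, 27648 and 35576 CPM over heterozygous 1 to 3 against 7432, 4309 and 4133 CPM over knockout 1 to 3. Reads with more than 1 alignment, which were not counted in genes, made up 22.9% ± 1.05 and 18.3% ± 1.26 of the column totals (SD, n = 3 each). Titles begin with RF in 4 libraries and with RE in 2, heterozygous 3 and knockout 3, and the labels do not say what the prefix means. The RE-titled libraries stood apart on the second principal component, at -19.4 and -54.1 against 12.9 to 27.5 for the others, and values from that pair alone are log2 ratios of CPM plus 0.5. Both RE-titled libraries lay below all RF-titled ones in 6 of the 12 brown adipocyte markers, against 17.8% of all tested genes. Ucp1 was 1 of these, at 2962 and 1646 CPM over heterozygous 3 and knockout 3.

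None of the 47 translation factor genes passed the test at an adjusted p of 0.05, where 0.586% of all tested genes did, 0.0526% higher and 0.534% lower (edgeR quasi-likelihood test, Benjamini-Hochberg adjustment over 13300 genes). At an unadjusted p of 0.05 there were 5 of 47 (10.6%), Eef1a2 below and Eif2ak4, Eif3d, Eif4e2 and Eif4ebp1 above, against 12.1% of all tested genes, 4.05% higher and 8.04% lower. DESeq2 called Eef1a2 lower and none higher, where it called 4.46% of genes with an adjusted p lower and 0.818% higher. The values nevertheless lay mostly on one side: 37 of 47 log2 fold changes were above 0, against 53.1% of all tested genes. Their median was 0.13, against 0.02 for all tested genes, and 0.07 against -0.03 when libraries were scaled by total reads alone. With that scaling 30 of the 47 members were above 0, against 5878 of all 13300 tested genes. The groups did not overlap in 12 members that stood higher in the knockout-labelled libraries (25.5%, against 8.09% of all tested genes) and in 1 that stood lower (2.13%, against 9.89%). These counts rest on TMM-scaled levels. With libraries scaled by total gene reads alone, the groups of Eef1a1, Eif2s1, Eif3b and Eif5a, all among the 12, overlapped. The shares over all tested genes were not matched for read level.

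Most members' fold changes were closely bounded. In 45 of the 47, the 95% interval of the fold change lay within a 2-fold change either way, which held for 71.2% of all tested genes. That share was not matched for read level, and the lowest average log2 CPM of a member was 3.99, for Eif2ak4. The exceptions were Eef1a2 and Eef2k. These intervals are per gene and not adjusted for the number of genes.

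**Figure D1:**
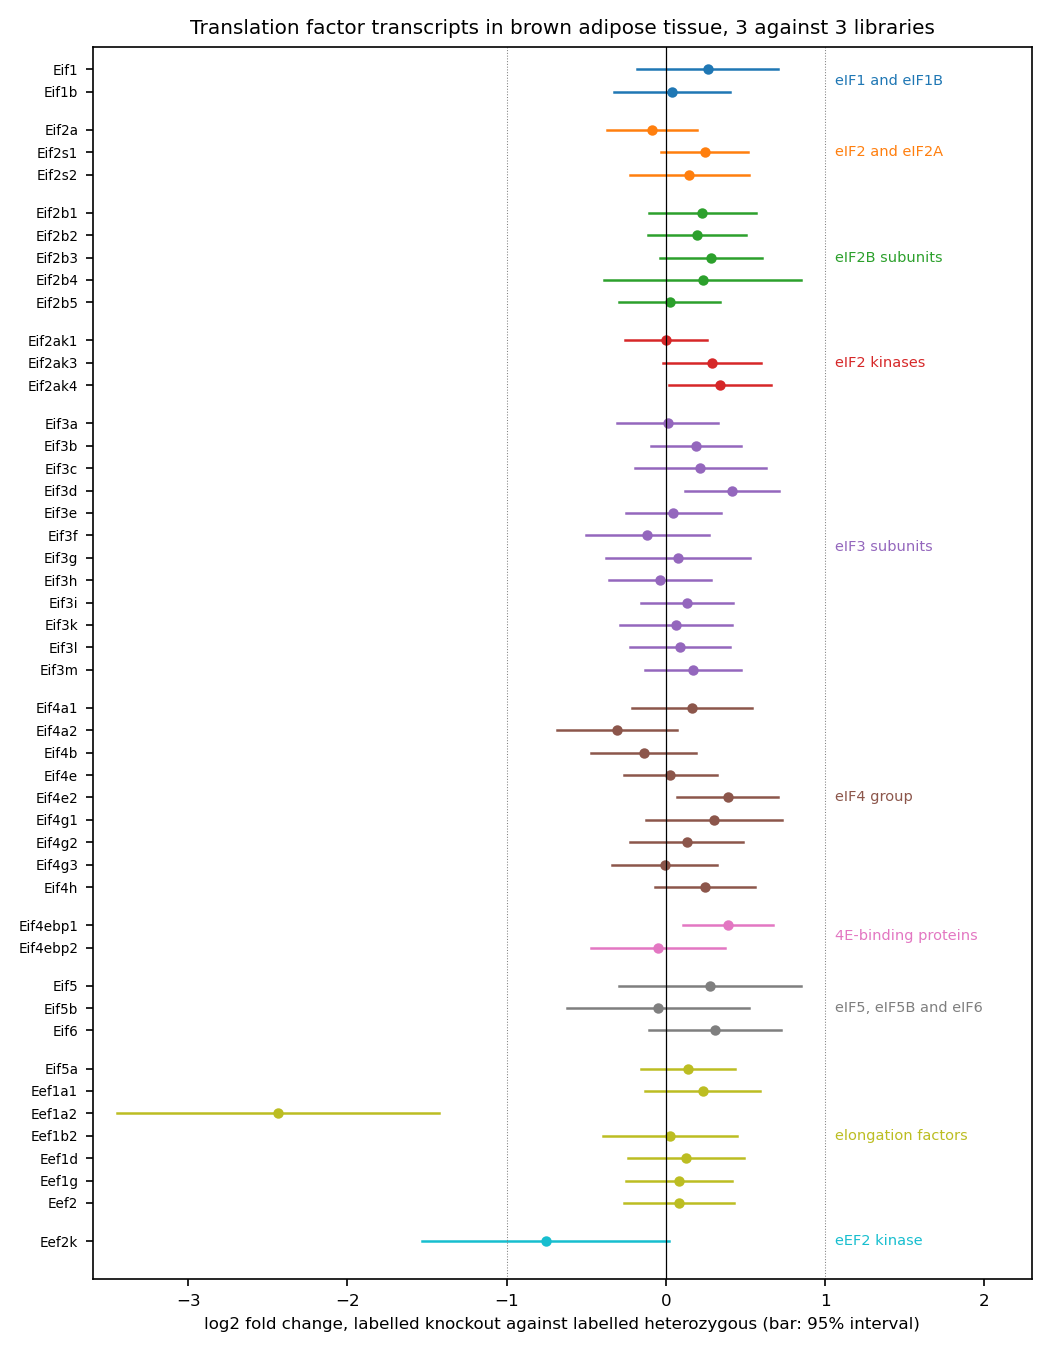
Log2 fold change of each of the 47 translation factor genes (x axis, knockout-labelled against heterozygous-labelled, 3 libraries each), grouped by role on the y axis. Points are edgeR estimates, bars their 95% intervals, and dotted lines mark a 2-fold change. Eef1a2, at -2.43, stands apart from all other members, which lie between -0.75 and 0.41.

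Levels differed far more between genes than between groups. Levels between genes are compared as CPM per kilobase of annotated exon. Eef1a1 was the most abundant member at 1055 ± 19.3 in the heterozygous-labelled libraries, followed by Eef2 at 448 ± 17.1 and Eif5a at 147 ± 4.36 (SD, n = 3 each). The eIF2 kinase Eif2ak4 was the least abundant at 1.87 ± 0.132 per kilobase, next to Eif2b3 at 2.89 ± 0.286 and Eef2k at 2.94 ± 1.34. The ranges of these last 2 genes overlapped, as did those of many neighbours in the order. Within eIF3, whose subunits form 1 complex, the level per kilobase ran from 16.3 ± 1.17 for Eif3e to 80.8 ± 3.24 for Eif3h, a 4.97-fold range. The annotated length pools all exons of a gene, so a gene with rarely used long exons is placed too low by this measure.

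**Figure D2:**
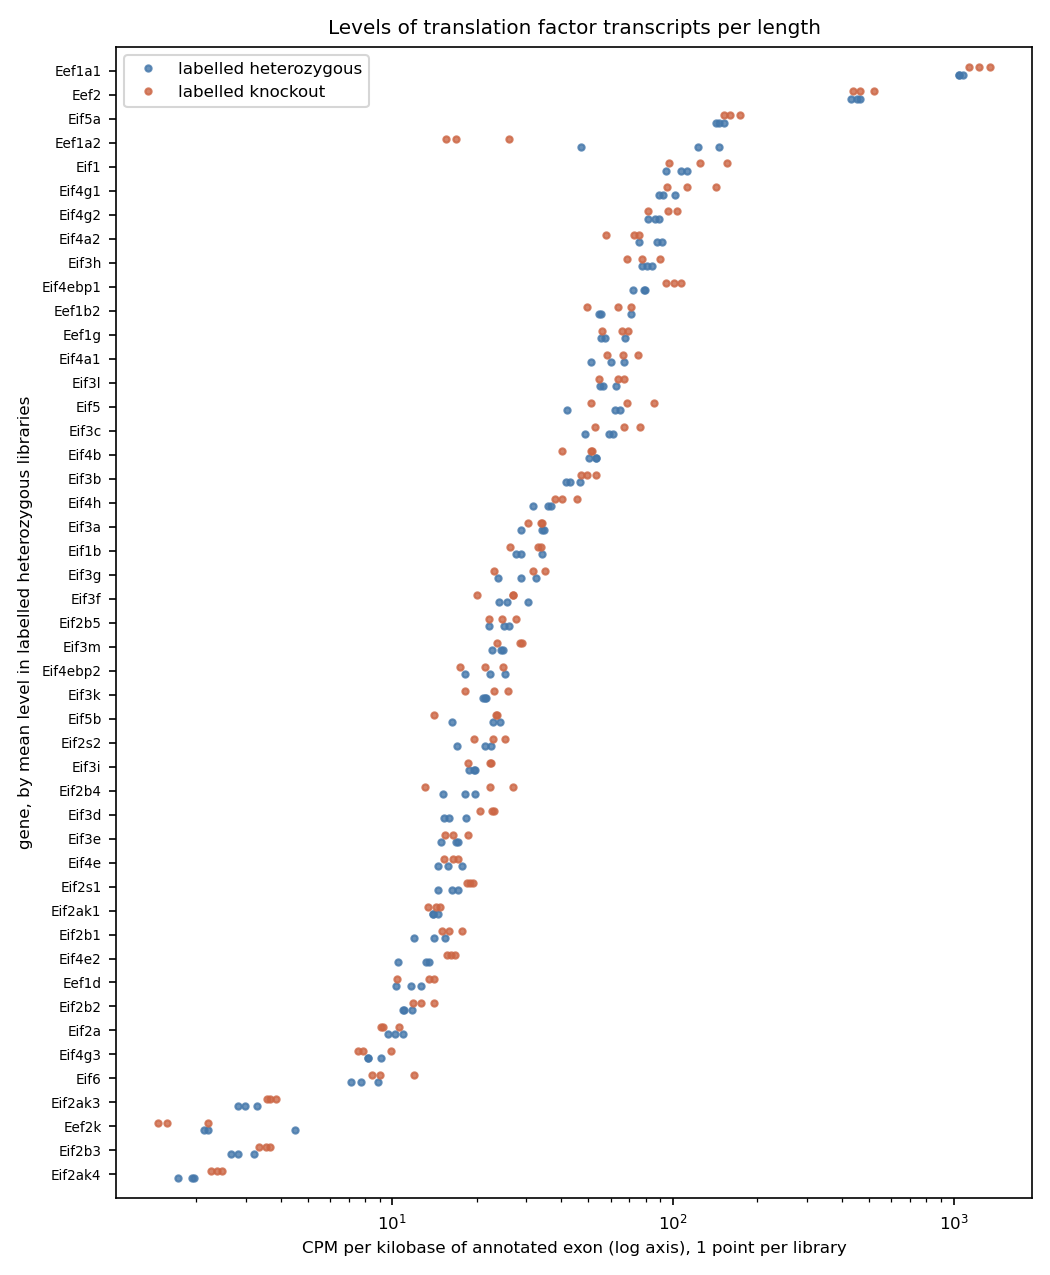
Level of each member as CPM per kilobase of annotated exon (x axis, log scale), with 1 point per library and genes ordered on the y axis by their mean in the heterozygous-labelled libraries. Eef1a1 and Eef2 stand above all other members in both groups, and Eef1a2 runs from 19.5 on average in the knockout-labelled libraries to 105 in the others.

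Eef1a2 and Eef1a1 encode the alternative forms of eEF1A, and the pair held the widest contrast in the set. Eef1a1 lies on chromosome 9 from 78478449 to 78489151 and Eef1a2 on chromosome 2 from 181147653 to 181157014, both on the minus strand (GRCm38, GENCODE M21). To show how the promoters of the pair differ, the 250 bases before the RefSeq start of each are printed 5′ to 3′ on the gene's strand, from chr9:78481725-78481974 and chr2:181157016-181157265 (GRCm38.p6). The Eef1a1 window lies inside the GENCODE span given above, which reaches further upstream than the RefSeq start. The Eef1a2 window lies outside its span. Capitals mark GC boxes, GGGCGG or its reverse complement CCGCCC, the element bound by Sp1.
Eef1a1: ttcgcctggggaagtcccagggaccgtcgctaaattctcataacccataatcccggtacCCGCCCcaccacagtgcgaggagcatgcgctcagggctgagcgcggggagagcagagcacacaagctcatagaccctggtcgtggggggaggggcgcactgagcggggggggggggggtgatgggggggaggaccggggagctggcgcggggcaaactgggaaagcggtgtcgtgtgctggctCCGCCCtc
Eef1a2: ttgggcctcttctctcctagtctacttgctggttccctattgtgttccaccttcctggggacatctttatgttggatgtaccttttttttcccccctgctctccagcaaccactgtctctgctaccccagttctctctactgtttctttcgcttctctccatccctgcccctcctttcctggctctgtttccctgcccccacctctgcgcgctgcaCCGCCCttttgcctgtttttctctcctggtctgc
The upstream stretch of Eef1a1 held 2 GC boxes with 68% G and C, and that of Eef1a2 held 1 with 54%. Neither held an E-box, CANNTG, the element of muscle regulatory factors, nor a TATA box, TATAAA, on either strand. RefSeq gave a promoter for 38 of the 47 members, 50 in all because some genes have several starts. A GC box was in 30 of these 50 (60%), against 32.7% of 32851 promoters in all. An E-box was in 26 of 50 (52%), against 66.2% of all and 20 of 24 promoters of muscle genes. These are matches of letters in a fixed window and do not show binding.

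Eef1a2 stood at 98.2, 256 and 303 CPM over heterozygous 1 to 3 against 54.2, 35.1 and 32.4 CPM over knockout 1 to 3. All 3 knockout-labelled libraries were below all 3 others, and heterozygous 1 lay nearer to them than its group mates did. The log2 fold change was -2.43 (SE 0.43, 95% interval -3.44 to -1.42), with an edgeR adjusted p of 0.0716 that misses the threshold. Over the alternatives run, the adjusted p ranged from 2.19e-07 (DESeq2) to 0.271 (RF-titled libraries alone); without heterozygous 1 it was 0.0121, at a log2 fold change of -2.78. Eef1a2 made up 4.31%, 10.6% and 11.9% of the reads per kilobase of the pair under the heterozygous label against 2.25%, 1.35% and 1.14% under the knockout label. The difference of -7.34 percentage points had an exact permutation p of 0.1, two-sided, the smallest that 3 against 3 allows.

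The order of the 6 libraries by Eef1a2 was the same as their order by the summed level of the 26 muscle markers. Per 1000 CPM of muscle markers, the CPM of Eef1a2 was 8.31, 9.27 and 8.52 under the heterozygous label and 7.29, 8.14 and 7.85 under the knockout label. That ratio ran from 7.29 to 9.27 over libraries in which Eef1a2 itself ran from 32.4 to 303 CPM, and it too was higher in all 3 heterozygous-labelled libraries than in any knockout-labelled one. The muscle markers had a median log2 fold change of -2.21, and all 26 were below 0. Groups did not overlap in any of the 26, where 9.89% of all tested genes were lower without overlap. None passed by edgeR, while all 26 were under an unadjusted p of 0.05, where 8.04% of all tested genes were lower. DESeq2 called 25 lower, against 4.46% of genes with an adjusted p. In bulk tissue, fewer cells of a type and less RNA per cell cannot be told apart.

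**Figure D3:**
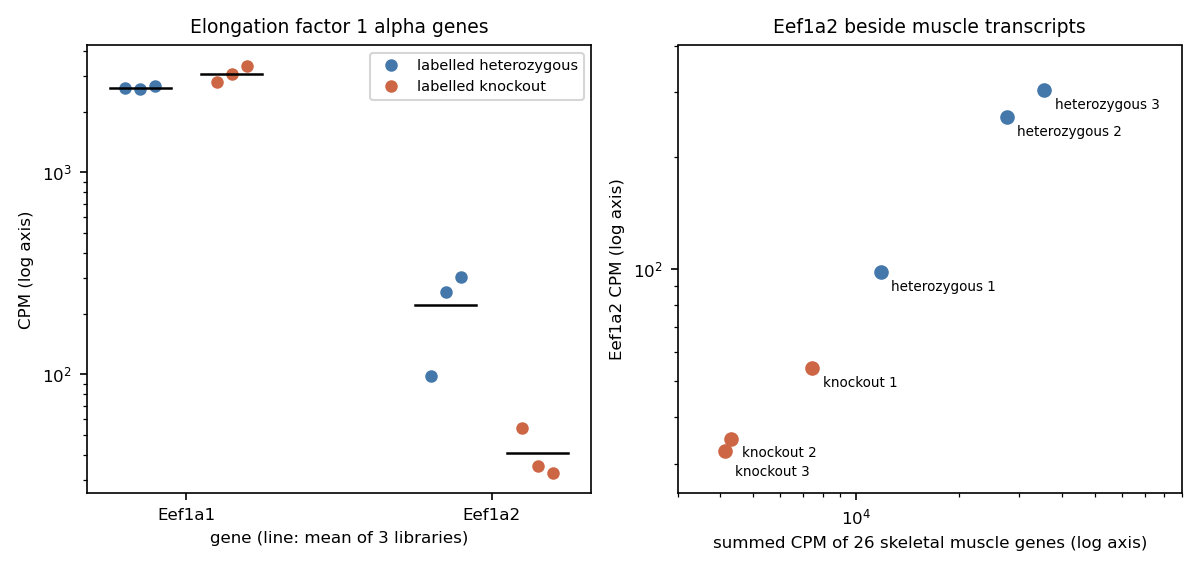
Left, CPM (y axis, log scale) of Eef1a1 and Eef1a2 with 1 point per library and a line at each group mean of 3. Right, Eef1a2 CPM against the summed CPM of 26 skeletal muscle genes, both on log axes, 1 point per library. The libraries lie in the same order on both axes, from knockout 3 (32.4 against 4133 CPM) to heterozygous 3 (303 against 35576 CPM).

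Eef1a1 stood at 2608, 2597 and 2686 CPM over heterozygous 1 to 3 against 2820, 3068 and 3373 CPM over knockout 1 to 3. Every knockout-labelled library was above every other one, at a log2 fold change of 0.23 (SE 0.154, edgeR adjusted p = 0.691). With libraries scaled by total gene reads alone, heterozygous 3 lay above knockout 1 and the groups overlapped. Eef1a1 has many near-identical processed copies in the genome. Its reads can therefore be set aside as aligning more than once, a class that was smaller in the knockout-labelled libraries, and the part of this in the difference was not tested.

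The other elongation factors lay close to 0. Eef2, the translocase, stood at 1430, 1500 and 1543 CPM over heterozygous 1 to 3 against 1462, 1545 and 1729 CPM over knockout 1 to 3, with groups that overlapped (log2 0.08, 95% interval -0.26 to 0.43, edgeR adjusted p = 0.929). The exchange factor subunits Eef1b2, Eef1d and Eef1g had log2 fold changes of 0.03, 0.13 and 0.08, each with overlapping groups. Eif5a, the hypusine-bearing factor that helps ribosomes over difficult peptide bonds, averaged 349 ± 10.4 CPM under the heterozygous label and 385 ± 25.8 CPM under the knockout label (SD, n = 3 each). Its groups just failed to overlap, at 360 CPM in heterozygous 3 and 362 CPM in knockout 1 (log2 0.14, edgeR adjusted p = 0.801). Scaled by total gene reads alone, the Eif5a groups overlapped.

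Eef2k, the kinase that phosphorylates eEF2 and slows elongation, had the second lowest fold change. It stood at 15.8, 16.4 and 33.3 CPM over heterozygous 1 to 3 against 11.6, 10.8 and 16.4 CPM over knockout 1 to 3. Heterozygous 3 was far above the other 5 libraries, and knockout 3 lay at the level of heterozygous 1 and 2. The log2 fold change was -0.75 (SE 0.329, 95% interval -1.53 to 0.02, edgeR adjusted p = 0.433), and -0.31 without heterozygous 3. Restricted to RF titles, the Eef2k value was -0.52, and between the RE-titled libraries it was -1.0003. With the prefix as a covariate it was -0.69 (edgeR adjusted p = 0.0589).

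Among the scanning factors, Eif1, which guards start codon choice, stood at 199, 225 and 235 CPM over heterozygous 1 to 3 against 204, 261 and 326 CPM over knockout 1 to 3. The groups overlapped, and the log2 fold change of 0.26 (SE 0.19, edgeR adjusted p = 0.721) was 0.07 without knockout 3. Its relative Eif1b stood at 31.1, 32.3 and 38.5 CPM and at 29.6, 38.1 and 37.1 CPM in the same order, with overlap (log2 0.04). Libraries scaled by total reads alone gave Eif1b a value below 0 (-0.02).

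Of eIF2, which carries the initiator transfer RNA, the set holds the alpha and beta subunit genes, and both had values slightly above 0. The genes of the gamma subunit, Eif2s3x and Eif2s3y, were in the list of further translation factors and lay at -0.15 and -0.10 (edgeR adjusted p = 0.855 and 0.928). Eif2s1, the alpha subunit that stress kinases phosphorylate, lies on chromosome 12 from 78861819 to 78887010 and stood at 80.7, 84.7 and 71.7 CPM over heterozygous 1 to 3. It was at 95.7, 93.7 and 91.2 CPM over knockout 1 to 3, above all heterozygous-labelled libraries (log2 0.24, SE 0.117, edgeR adjusted p = 0.495). Scaled by total gene reads alone, the Eif2s1 groups overlapped. Eif2s2, the beta subunit, stood at 145, 152 and 115 CPM and at 170, 154 and 132 CPM in the same order, with overlap (log2 0.15, edgeR adjusted p = 0.858). Eif2a, a separate protein that can also bring initiator transfer RNA, was at -0.09.

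All 5 subunits of eIF2B, the exchange factor that reloads eIF2, lay above 0, at a median log2 fold change of 0.23 and a range from 0.03 for Eif2b5 to 0.28 for Eif2b3. None passed the test. Eif2b3 stood at 17.3, 20.9 and 18.4 CPM over heterozygous 1 to 3 against 23.2, 21.8 and 23.8 CPM over knockout 1 to 3. These groups did not overlap (SE 0.136, edgeR adjusted p = 0.495), nor did those of Eif2b2 (log2 0.20). Eif2b1 was at 36.5, 39.9 and 30.9 CPM against 41.2, 45.7 and 38.7 CPM, with overlap (log2 0.23). Eif2b4 varied most within the knockout-labelled group, at 58.1, 70.2 and 33.9 CPM.

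The 3 eIF2 kinases of the set answer to different stresses, and none of them passed the test. Eif2ak4 (GCN2), which senses uncharged transfer RNA, stood at 14.4, 12.8 and 14.7 CPM over heterozygous 1 to 3 against 18.5, 17.7 and 16.8 CPM over knockout 1 to 3. Eif2ak3 (PERK), the sensor in the endoplasmic reticulum, stood at 19.8, 16.9 and 17.9 CPM and at 22.1, 21.6 and 23.2 CPM in the same order. In both genes every knockout-labelled library was above every other one, and neither passed: log2 0.34 (SE 0.138, edgeR adjusted p = 0.376) for Eif2ak4 and 0.29 (SE 0.132, edgeR adjusted p = 0.459) for Eif2ak3. Eif2ak1 (HRI), which senses heme, had a log2 fold change of 0.00 with a 95% interval of -0.25 to 0.26, at 80.3 ± 2.02 and 80.4 ± 3.77 CPM (SD, n = 3 each). Exons of Eif2ak1 share 487 bases with exons of Aimp2 on the opposite strand. Those of Eif2ak3 share 485 bases with opposite-strand Gm43292, whose symbol is not in the count table. The sources used here do not say whether counting used strand, and the part of such reads was not tested.

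In eIF3, the large scaffold that holds the initiation complex on the small subunit, 10 of 12 subunits lay above 0 and the median log2 fold change was 0.08. The range ran from -0.12 for Eif3f to 0.41 for Eif3d. Eif3d, a subunit that can bind the messenger RNA cap itself, lies on chromosome 15 from 77958998 to 77970813. Its exons share 2151 bases with the antisense gene Gm17638, whose symbol is not among those of the count table, and the part of antisense reads in its value was not tested. It stood at 79.4, 91.1 and 75.9 CPM over heterozygous 1 to 3 against 102, 114 and 112 CPM over knockout 1 to 3. Every knockout-labelled library was above every other one, and the gene did not pass (SE 0.125, 95% interval 0.12 to 0.71, edgeR adjusted p = 0.2). Eif3b stood at 144, 156 and 139 CPM and at 165, 178 and 157 CPM in the same order, with groups that just failed to overlap (log2 0.19, edgeR adjusted p = 0.667). Scaled by total gene reads alone, the Eif3b groups overlapped. For the large subunit Eif3a the groups overlapped (log2 0.01, 95% interval -0.30 to 0.33). Eif3e, Eif3g, Eif3h, Eif3k and Eif3l lay between -0.04 and 0.09, and Eif3c, Eif3i and Eif3m between 0.13 and 0.22, all with overlapping groups.

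The eIF4 proteins recognise the cap and unwind the leader. Eif4e, the cap-binding protein, stood at 94.6, 106 and 87.5 CPM over heterozygous 1 to 3 against 103, 98.9 and 92.0 CPM over knockout 1 to 3 (log2 0.03, 95% interval -0.26 to 0.32, edgeR adjusted p = 0.973). Its value was below 0 when libraries were scaled by total reads alone (-0.02). Eif4e2, a cap-binding relative that represses translation in many settings, lies on chromosome 1 from 87213914 to 87240488. It stood at 98.4, 101 and 78.3 CPM and at 117, 121 and 125 CPM in the same order, without overlap, and did not pass (log2 0.39, SE 0.136, edgeR adjusted p = 0.285).

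Eif4a2, one of the paired helicases, was lower in value: 469, 489 and 404 CPM over heterozygous 1 to 3 against 389, 405 and 308 CPM over knockout 1 to 3. Its groups overlapped by a single library pair, heterozygous 3 and knockout 2 (log2 -0.31, SE 0.161, edgeR adjusted p = 0.557). The other helicase, Eif4a1, was at 0.16, the helicase cofactors Eif4b and Eif4h at -0.14 and 0.25. The scaffolds Eif4g1, Eif4g2 and Eif4g3 were at 0.30, 0.13 and -0.01. Knockout 3 held the highest Eif4g1 level, 1039 CPM against 654 to 819 CPM in the other 5 libraries.

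The 4E-binding proteins hold eIF4E away from eIF4G until the growth kinase mTORC1 phosphorylates them. Eif4ebp1, the form abundant in fat, lies on chromosome 8 from 27260329 to 27276674 and stood at 173, 175 and 159 CPM over heterozygous 1 to 3. It was at 207, 234 and 222 CPM over knockout 1 to 3, above all the others (log2 0.39, SE 0.121, edgeR adjusted p = 0.217). Eif4ebp2 stood at 145, 129 and 105 CPM and at 143, 101 and 123 CPM in the same order, with overlap (log2 -0.05, SE 0.18, edgeR adjusted p = 0.965). The ratio of Eif4ebp1 to Eif4ebp2, in reads per kilobase, was 3.14, 3.57 and 3.97 under the heterozygous label against 3.82, 6.10 and 4.75 under the knockout label. The difference of 0.44 on the log2 scale had an exact permutation p of 0.2, two-sided.

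Ratios within pairs of related translation factors, in reads per kilobase, did not overlap between groups in 3 of 6 pairs. Of these ratios, 2 were planned and 4 were added after the values were seen. The ratio of Eif4a2 to Eif4a1, the paired helicases of eIF4F, was 1.46, 1.37 and 1.48 over heterozygous 1 to 3 and 1.10, 1.01 and 0.994 over knockout 1 to 3. The difference was -0.48 on the log2 scale, or -0.42 among RF-titled and -0.58 between RE-titled libraries. Exons of Eif4a2 overlap small nucleolar RNA genes on its own strand and Rfc4 on the other, and the part of reads shared between them was not tested.

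The ratio of Eif4e2 to Eif4e was 0.834, 0.762 and 0.717 under the heterozygous label against 0.910, 0.982 and 1.09 under the knockout label, a difference of 0.36 on the log2 scale (0.25 among RF-titled and 0.60 between RE-titled libraries). Eef1a2 to Eef1a1 was the pair with the widest difference, -2.54. Eif4ebp1 to Eif4ebp2, Eif4g3 to Eif4g1 (-0.30) and Eif1b to Eif1 (-0.20) had overlapping groups. In exact permutation tests, two-sided, the 3 separated pairs each gave p = 0.1, the smallest that 3 against 3 allows, and 0.2 after Benjamini-Hochberg adjustment over the 6 pairs. No pair therefore passed a threshold of 0.05, and the design could not have passed it.

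**Figure D4:**
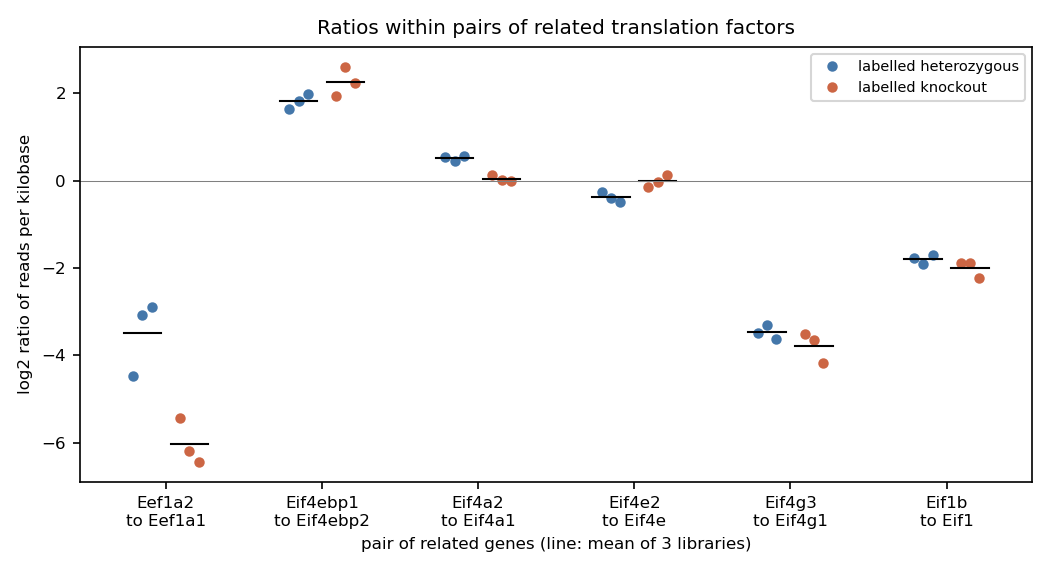
Log2 ratio of reads per kilobase within 6 pairs of related genes (x axis), with 1 point per library and a line at the mean of each group of 3. The groups are apart for Eef1a2 to Eef1a1, Eif4a2 to Eif4a1 and Eif4e2 to Eif4e, and overlap in the other pairs.

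Factors of subunit joining had groups that overlapped. Eif5, which makes eIF2 hydrolyse its GTP, stood at 424, 442 and 287 CPM over heterozygous 1 to 3 against 584, 468 and 347 CPM over knockout 1 to 3 (log2 0.28, SE 0.244, edgeR adjusted p = 0.798). Eif5b, which joins the ribosomal subunits, stood at 222, 237 and 159 CPM and at 229, 231 and 137 CPM in the same order (log2 -0.05). In both genes the lowest 2 libraries were the RE-titled ones. Eif6, which keeps free large subunits apart from small ones, stood at 20.9, 24.1 and 19.2 CPM and at 24.4, 32.2 and 22.8 CPM, with overlap (log2 0.31, SE 0.178, edgeR adjusted p = 0.623).

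Both RE-titled libraries lay below all 4 RF-titled ones in 9 members (19.1%, against 17.8% of all tested genes) and above them in 5 (10.6%, against 16.3%). Those below were Eif2s2, Eif2b4, Eif3c, Eif3g, Eif4a1, Eif4b, Eif4e, Eif5 and Eif5b, and those above were Eif2a, Eif3f, Eif3h, Eef1b2 and Eef1g. In a fit with genotype and prefix together, the prefix term passed for 3 members. Eif5 and Eif5b were lower in RE-titled libraries, at -0.60 and -0.63 on the log2 scale (edgeR adjusted p = 0.0398 and 0.0205), and Eef2k was higher, by 0.81 (edgeR adjusted p = 0.0223). Over all tested genes the term passed for 4.32% lower and 5.02% higher. Exons of Eif5b share 1643 bases with exons of Rev1 on the opposite strand. Within the RF-titled libraries the members' median log2 fold change by genotype was 0.11; the single RE-titled library of each label gave 0.18, untested.

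**Figure D5:**
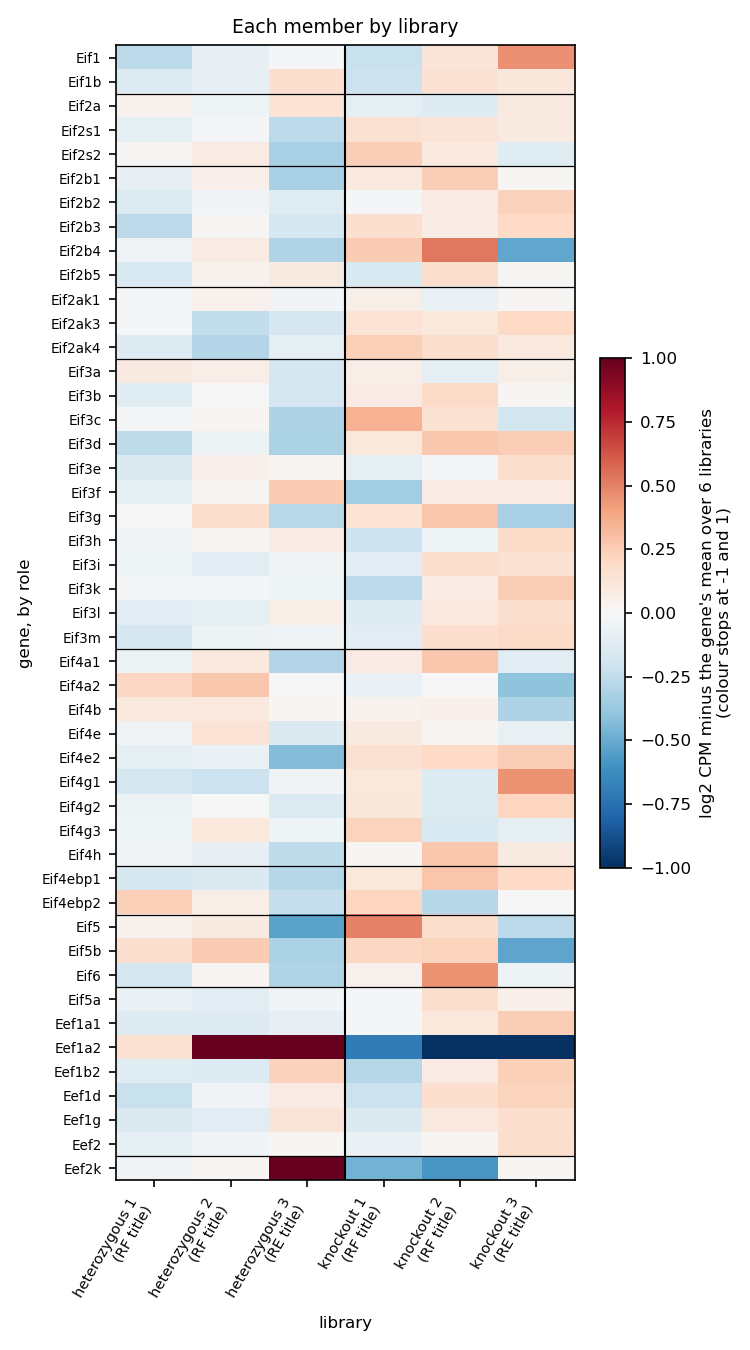
Deviation of each member (rows, grouped by role) from its own mean over the 6 libraries (columns), in log2 CPM, with the colour scale ending at -1 and 1. Eef1a2 is deep red in heterozygous 2 and 3 and deep blue in knockout 2 and 3, Eef2k is highest in heterozygous 3, and Eif5 and Eif5b are low in both RE-titled libraries.

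Together the 47 genes took 1.11%, 1.16% and 1.19% of gene reads over heterozygous 1 to 3 and 1.19%, 1.24% and 1.18% over knockout 1 to 3. The groups overlapped, and the difference of 0.0531 percentage points had an exact permutation p of 0.3, two-sided. With muscle genes left out of the total it was 0.0285.

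Other genes of the translation machinery gave few calls. Of 36 further translation factors tested (39 listed), none passed and 21 were above 0 (58.3%, against 53.1% of all tested genes), with a median of 0.06. The smallest p values were those of Eif1a, a scanning factor, at 66.1 ± 25.4 and 107 ± 7.19 CPM (log2 0.69, edgeR adjusted p = 0.352), and Mcts1, a recycling factor (0.32, edgeR adjusted p = 0.392). At an unadjusted p of 0.05 there were 2 of the 36 (5.56%, against 12.1% of all tested genes), and DESeq2 called none.

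Of 28 regulators of mTORC1 and eIF4E, none passed by edgeR. Under an unadjusted p of 0.05 were 4 (14.3%, against 12.1% of all tested genes). DESeq2 called 2 lower, where it called 4.46% of genes with an adjusted p lower. Rragd, a Rag GTPase that brings mTORC1 to the lysosome, stood at 36.5 ± 14.7 and 7.66 ± 1.904 CPM (log2 -2.25, edgeR adjusted p = 0.0581). Ddit4l, an mTORC1 inhibitor, stood at 37.8 ± 14.9 and 8.26 ± 3.71 CPM (log2 -2.20, edgeR adjusted p = 0.0736). Both genes stood lowest among the heterozygous-labelled libraries in heterozygous 1, as did the muscle markers, and the part of muscle tissue in them was not tested.

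Genes of eIF2 phosphorylation and its effector ATF4 lay above 0 in 15 of 17 tested (19 listed), with a median of 0.27. That is 88.2%, against 53.1% of all tested genes. None passed by edgeR or DESeq2, and 2 were under an unadjusted p of 0.05 (11.8%, against 12.1% of all tested genes). Trib3, an ATF4 target, was at 0.90 (edgeR adjusted p = 0.213) and Atf4 at 0.56 (edgeR adjusted p = 0.242), both just without overlap between groups. The nearest Atf4 levels were 153.3 CPM in heterozygous 2 and 153.6 CPM in knockout 1. For Trib3 they were 6.04 CPM in heterozygous 3 and 6.54 CPM in knockout 1. Groups did not overlap in 3 of the 17, all higher (17.6%, against 8.09% of all tested genes). Of 22 genes for cytosolic transfer RNA synthetases and their partners, 19 were above 0 (86.4%, against 53.1% of all tested genes), with a median of 0.14. None passed by edgeR, and 5 were under an unadjusted p of 0.05 (22.7%, against 12.1% of all tested genes). DESeq2 called 1 higher and 1 lower, where it called 0.818% and 4.46% of genes with an adjusted p. Yars, for tyrosine, stood at 27.9 ± 1.61 and 43.1 ± 2.36 CPM (log2 0.63, edgeR adjusted p = 0.0736). Aimp2, a scaffold of the synthetase complex, stood at 20.7 ± 5.05 and 10.9 ± 1.17 CPM (log2 -0.92, edgeR adjusted p = 0.0841).

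The translation factors of mitochondria, which serve a separate ribosome, stood the other way. Of 12 tested, 11 were below 0 with a median of -0.52, and 2 fell while none rose, where 0.534% of all tested genes fell. At an unadjusted p of 0.05 there were 8 of the 12, all lower (8.04% of all tested genes). Groups did not overlap in 8, all lower (66.7%, against 9.89% of all tested genes). DESeq2 called 4 lower, where it called 4.46% of genes with an adjusted p lower. Gfm1, the mitochondrial counterpart of eEF2, went from 217 ± 24.9 to 83.8 ± 4.15 CPM (log2 -1.37, SE 0.135, edgeR adjusted p = 0.0185). Gfm2, which recycles mitochondrial ribosomes, went from 109 ± 10.98 to 53.8 ± 3.23 CPM (log2 -1.02, SE 0.127, edgeR adjusted p = 0.0259). With heterozygous 2, knockout 1 or knockout 2 left out, no gene of the table passed, these included. The difference between the mitochondrial and the cytosolic factors was not tested.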

How the data were processed

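RNA-seq libraries of brown adipose tissue from 6 mice, 3 per genotype label, were analysed from the deposited table of raw counts per gene. The submitters' processing notes name, for the authors' counts, the build mm10 and the tools HTSeq, STAR 2.7.2b, edgeR, SAMtools 1.9, Trim Galore and Bowtie2 2.3.4.3. What each tool did, and whether strand was used, is not stated. The 5 rows that name no gene were left out of library sizes and tests.

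Genes were kept by edgeR's filterByExpr (minimum count 10, minimum total 15), scaled by TMM and tested with the robust quasi-likelihood test of edgeR 4.0.16 in R 4.3.3, knockout against heterozygous, with Benjamini-Hochberg adjustment at 0.05. Steps were tested on simulated data. The biological coefficient of variation was 24.69%. Replicates are separate mice per the labels; their numbers are only names. Lengths are union exons of GENCODE M21. Shares and log2 ratios were compared by exact permutation. DESeq2 1.42.0, limma 3.58.1 and other settings were alternatives.

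Members and lists were chosen with earlier results of these data known. Values in every library are given for members called, the 2 smallest p values in each of 10 role groups, the 6 largest changes without overlap at an average log2 CPM of at least 1, and Eef1a1, Eef1a2, Eif4ebp1, Eif4ebp2, Eif2s1, Eif4e, Eef2 and Eef2k. In each pathway list, called genes are named, or else the 2 with the smallest p. Other genes named, such as Eif5b, Eif2b4 and Eif4g1, were chosen after their values were seen.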

Additional observations from a re-analysis of the deposited data

How the results depend on the processing

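The absence of called members held under RLE scaling, scaling by library size alone, scaling without muscle genes, both other filters, the title prefix as covariate, RF-titled libraries alone, limma-voom and edgeR without robust estimation. Eef1a2 was the 1 member called lower by DESeq2, at an adjusted p of 0.1, and without heterozygous 1 (0 to 1 members over libraries left out in turn). At an unadjusted p of 0.05, a setting chosen after seeing the data, 4 members were higher and 1 lower. The members' median log2 fold change ran from 0.08 to 0.17 over libraries left out in turn, and 33 to 38 members were above 0. Eif1b turned below 0 with library size alone (-0.0192), and with libraries left out in turn it ran from -0.0247 to 0.147. Eif4e likewise turned with library size alone (-0.0209) and ran from -0.0332 to 0.108. Eif4ebp2 ran from -0.174 to 0.0733.

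Counts over all genes moved more. Genes called higher numbered 7, against 13 with no filter, 67 with the prefix as covariate, 19 in RF-titled libraries alone, 117 by DESeq2, 29 by limma-voom, 60 at an adjusted p of 0.1, and 0 to 19 with a library left out. Genes called lower numbered 71, against 244 with the prefix as covariate, 113 in RF-titled libraries alone, 638 by DESeq2, 165 by limma-voom, 440 at an adjusted p of 0.1, and 0 to 381 with a library left out. Both counts were 0 without heterozygous 2, knockout 1 or knockout 2, and highest without heterozygous 1. The causes were not tested. No paired analysis was possible because the labels give the groups no shared replicate numbers; the title prefix, which both groups share, ties only 1 library of each group together and was used as a covariate instead. With 3 libraries per group, the members' standard errors bound what could be detected, and interval widths cover the spread between mice only.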
